A study of Mus musculus with 2 samples.

Results

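Endothelial cells, the cells that line blood vessels, were 79 of the 9258 cell barcodes that passed the filters in a single-cell RNA study of the postnatal mouse cortex and corpus callosum. They were chosen by expression. A member had at least 500 genes detected and at most 10% mitochondrial UMIs (unique molecular identifiers, each counted as 1 captured mRNA). Its UMIs of Cldn5, Pecam1, Flt1, Cdh5 and Ly6c1 summed to at least 10 per 10000 and numbered at least 5. Its C1qa, C1qb and C1qc summed to under 10 per 10000, and its Pdgfra was under 3 per 10000. Of the 79 members, 76 came from the library named DREADD-CNO and 3 from the library named WT-CNO.

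The tissue came from C57BL/6J pups on postnatal day 8, was dissociated with papain and was enriched with magnetic beads against PDGFRα and O4. Both are surface antigens of the oligodendrocyte lineage and not of endothelial cells. Pdgfra is also on the list of fibroblast markers used below. All pups had received at postnatal day 0 an adeno-associated virus, pAAV-hSyn-DIO-hM4D(Gi)-mCherry, whose inhibitory receptor is switched on only by Cre recombinase behind a neuronal promoter, and all were given clozapine-N-oxide (CNO) by mouth 2 times a day from day 2 to day 8. DREADD-CNO was a pool of 3 pups with 1 copy of Cre at Neurod6 (NexCre+/-, Neurod6tm1(cre)Kan), a locus active in cortical excitatory neurons, and WT-CNO was a pool of 2 wildtype pups. With 1 library per group, genotype, pups, dissociation, bead selection and library cannot be told apart, so the cells were compared with the other cells of the DREADD-CNO library and no p-value is given. Intervals in parentheses are exact 95% intervals that cover counting error only.

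Brain endothelial cells form the blood-brain barrier. Tight junctions built on claudin-5 seal the spaces between them, caveolae are few, and solute carriers and efflux pumps decide which nutrients, hormones and drugs cross the cell. During development VEGF from the tissue drives sprouting through the receptor Flk1 (Kdr), the Tie receptors stabilise the vessel, and WNT7A, WNT7B and Norrin from neural cells switch on barrier genes through the receptor FZD4 and β-catenin. Along a vessel tree the cells take arterial, capillary and venous states, and sprouting tips form a further state.

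The 2 libraries differed widely in how many such cells they held. Endothelial cells were 76 of 4986 filtered barcodes in DREADD-CNO, a share of 1.52% (1.20 to 1.90), and 3 of 4272 in WT-CNO, a share of 0.0702% (0.0145 to 0.205). The libraries held 108912581 and 78794300 UMIs in 6754 and 6252 barcodes. They shared 12 barcode sequences, of which 0 belonged to members. Other vessel-associated classes were also few, with 16 pericyte-like and 23 fibroblast-like cells in DREADD-CNO and 6 and 4 in WT-CNO. Pericyte-like and fibroblast-like here, and macrophage-like, OPC-like (oligodendrocyte precursor) and COP/OL-like (committed precursor and oligodendrocyte) below, are classes cut from marker sums, not clusters.

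The values of the rule's own markers, which chose the members, are given as a description and support nothing. The sums of the 5 rule markers in the DREADD-CNO members ran from 18.4 to 165 per 10000, with a median of 72.8. The lowest were 18.4, 19.2, 20.9 and 31.0, while the highest sum outside among barcodes with at least 5 such UMIs and the other criteria met was 3.63. A further 9 DREADD-CNO barcodes reached the sum with fewer than 5 UMIs, 7 were left out for Pdgfra and 8 for mitochondrial UMIs. All 5 rule markers were detected in 50 of the 76 members and at least 3 in 68.

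Depth varied strongly between members. Their UMIs ranged from 734 to 185063 with a median of 15420.5, beside a median of 17636 in the 4910 other DREADD-CNO cells. Members detected 569 to 10892 genes. There were 52 members with at least 5000 UMIs. The 7 members with over 100000 UMIs held 39.6% of all UMIs of the class. A doublet score marked 2 members, neither of them among these 7. The median mitochondrial share was 4.36% in members and 4.43% in the other cells, and the median share of ribosomal protein mRNAs was 14.8% and 6.00%. UMIs of Xist without Y-linked genes were found in 16 members and of Y-linked genes without Xist in 38, so cells of both sexes were present. Gm42418, a locus that overlaps ribosomal RNA, took 1.18% of the members' UMIs, and Malat1 a median of 0.671%.

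Endothelial identity genes that the rule did not use were high across the members. All 28 genes of the identity list, of which all 28 were measured, were higher in the DREADD-CNO members than in the other cells by the rule of size described below, and 26 of them had their highest level of 6 cell classes there. The exceptions were Emcn and Epas1, which were highest in pericyte-like cells at 303 and 484 CPM (UMIs of the gene per 1000000 UMIs) against 220 and 331 in members. The 16 pericyte-like cells held 115643 UMIs against 2445664 in members, so levels in that class are less precise. Adgrl4, an adhesion receptor of endothelium, stood at 845 CPM (809 to 882) in members and 0.746 CPM in the other cells. Erg, the ETS-family factor that maintains endothelial identity, stood at 325 and 0.941 CPM. Sox17, Sox18 and Sox7, the SoxF factors of vascular development, stood at 121, 194 and 112 CPM in members and at most 0.337 CPM in the other cells. Every DREADD-CNO member held UMIs of the identity list, between 37.0 and 278 per 10000 with a median of 125.

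Markers of neighbouring cell types were low or absent. Pdgfrb, Kcnj8, Abcc9, Higd1b, Acta2 and Tagln of the 10 pericyte and smooth muscle markers were at 0 UMIs in the 76 members, as were the 6 fibroblast markers other than Pdgfra, among them Col1a1, Col1a2 and Dcn. With 2445664 UMIs in the members, the floor of 3 UMIs used for genes at 0 UMIs is 1.23 CPM. Low levels may therefore go unseen. The pericyte list summed to 6.95 CPM in members and 23642 CPM in pericyte-like cells, and its sum per member ran from 0 to 1.94 per 10000. The rule itself limited Pdgfra and the C1q genes, so the lists are given without them. The other 7 macrophage markers summed to 57.2 CPM in members and 12095 CPM in macrophage-like cells, and 6 of them were called lower. The other 9 OPC markers summed to 377 CPM in members and 14551 CPM in OPC-like cells, and the oligodendrocyte list to 644 CPM in members and 19856 CPM in COP/OL-like cells. Per member the oligodendrocyte list ranged up to 492 per 10000. Part of this sat in few cells: 3 members held at least 10 per 10000 and 5 UMIs of the genes that define COP/OL-like cells. Of the lymphatic markers, Prox1, Pdpn and Lyve1 stood at 4.50, 1.23 and 1.64 CPM. Haemoglobin Hbb-bs had 234 UMIs in the members, 93.2% of them in 1 cell. Astrocyte markers were lower in 4 of 5 measured genes, with Aqp4 at 0 UMIs. Neurod6, the locus that drives Cre, was at 0 UMIs in members. Of 5 measured neuronal markers 3 were lower and 1, Stmn2, higher, at 27.8 CPM in 11.8% of members. Stmn2 is also on the arterial list described below and is counted in both. Of the choroid plexus list, the only measured gene, Ttr, was called lower. Its log2 ratio to all other cells was -6.01. Ttr was at 28.6 CPM in members and between 27.3 and 34.6 CPM in each of the 5 other classes. Its high level therefore lay in the 290 cells of no class, and members were near the named classes.

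Cells were also placed by their whole profile without the rule's own genes. In a space of 30 principal components over 2000 variable genes, with both libraries together, 67 of the 79 members had at least 8 other members among their 15 nearest neighbours, and the median was 15. Members made up 81.2% of all such neighbours and 0.853% of all cells. Of the 12 members below 8, 10 had fewer than 5000 UMIs. The other neighbours were mostly cells of no class (115) and pericyte-like cells (47).

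**Figure D1:**
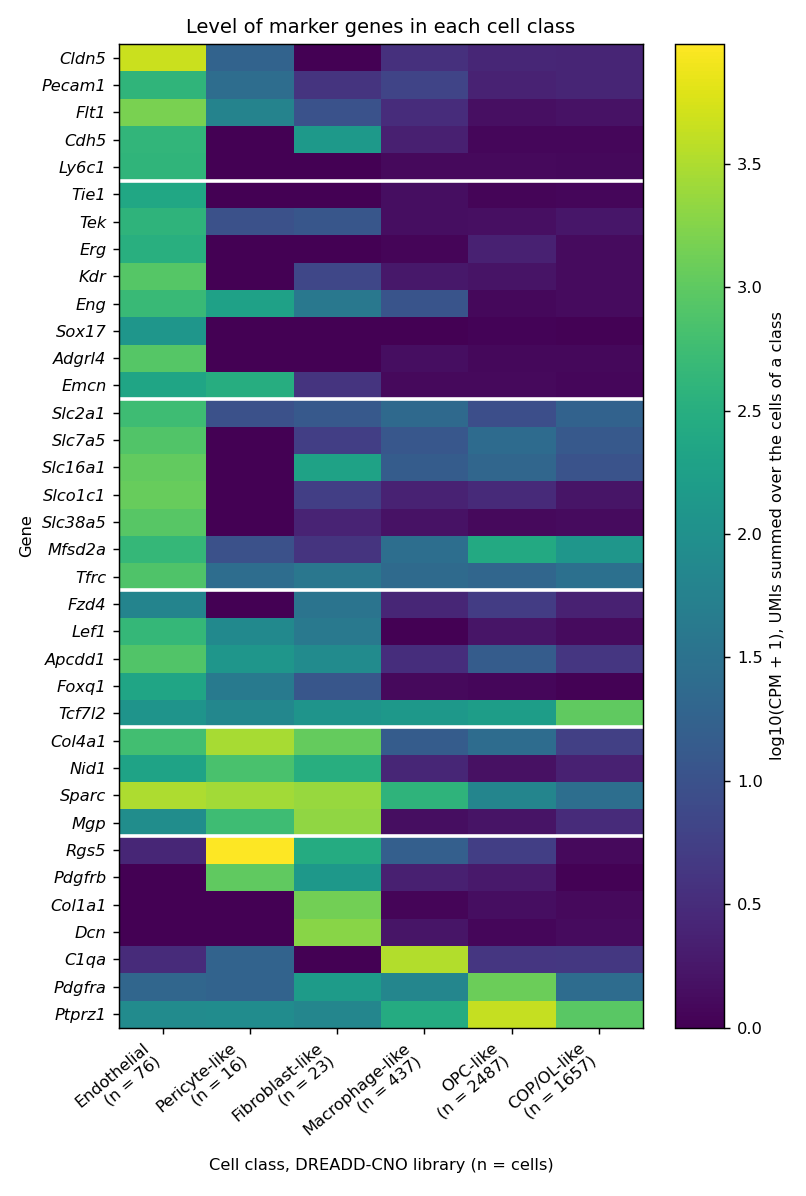
Heat map of the level of marker genes (rows) in 6 cell classes of the DREADD-CNO library (columns, with the number of cells), as log10 of CPM plus 1, from UMIs summed over the cells of each class. The rule markers, identity genes and transporters are bright in the endothelial column, and each gene in the bottom block is darker there than in its own class, with Pdgfrb, Col1a1 and Dcn at 0.

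Promoter sequences were available for some of these genes from RefSeq (GRCm38.p6), as the 250 bases before the transcription start. They are shown because ETS-family factors such as Erg and Fli1 are high in these cells and their core element can be searched for. Capitals mark the letters AGGAAG, the core searched on both strands (CTTCCT on the other). Cldn5 (chr16:18776597-18776846, plus strand) and Slc38a5 (chrX:8271131-8271380, plus strand), the genes on which the following results turn, had 0 matches. Itm2a (chrX:107403361-107403610, minus strand), Adgrl4 (chr3:151437632-151437881, plus strand), Eng (chr2:32646345-32646594, plus strand) and Cd34 (chr1:194938571-194938820, plus strand) are the 4 identity genes with a match, a single promoter in the table and the highest levels.
Cldn5: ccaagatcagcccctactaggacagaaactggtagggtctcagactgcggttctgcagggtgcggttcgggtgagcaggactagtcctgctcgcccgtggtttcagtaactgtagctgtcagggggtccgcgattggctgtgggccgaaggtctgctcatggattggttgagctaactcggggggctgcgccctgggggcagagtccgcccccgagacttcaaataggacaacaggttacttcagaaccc
Slc38a5: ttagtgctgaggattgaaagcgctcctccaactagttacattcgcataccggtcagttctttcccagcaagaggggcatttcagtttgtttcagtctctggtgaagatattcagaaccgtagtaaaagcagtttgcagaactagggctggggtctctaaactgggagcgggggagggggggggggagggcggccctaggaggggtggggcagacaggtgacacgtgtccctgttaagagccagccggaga
Itm2a: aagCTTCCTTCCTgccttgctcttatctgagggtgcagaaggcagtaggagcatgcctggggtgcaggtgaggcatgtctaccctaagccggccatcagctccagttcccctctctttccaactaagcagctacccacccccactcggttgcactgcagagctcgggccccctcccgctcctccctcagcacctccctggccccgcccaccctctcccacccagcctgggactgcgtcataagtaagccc
Adgrl4: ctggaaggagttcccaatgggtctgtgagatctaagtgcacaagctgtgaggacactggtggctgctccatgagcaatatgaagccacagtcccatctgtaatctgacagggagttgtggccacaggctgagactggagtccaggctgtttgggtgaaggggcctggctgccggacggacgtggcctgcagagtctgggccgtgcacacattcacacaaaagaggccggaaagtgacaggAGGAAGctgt
Eng: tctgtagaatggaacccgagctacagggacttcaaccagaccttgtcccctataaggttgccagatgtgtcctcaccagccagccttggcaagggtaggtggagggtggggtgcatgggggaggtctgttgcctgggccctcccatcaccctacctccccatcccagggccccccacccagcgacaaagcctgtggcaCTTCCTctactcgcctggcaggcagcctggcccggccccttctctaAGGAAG
Cd34: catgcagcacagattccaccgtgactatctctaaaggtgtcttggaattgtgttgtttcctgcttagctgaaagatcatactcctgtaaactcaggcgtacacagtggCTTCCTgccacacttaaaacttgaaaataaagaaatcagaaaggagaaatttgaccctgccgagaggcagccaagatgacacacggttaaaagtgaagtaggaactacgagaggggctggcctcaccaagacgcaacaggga

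The core stood in 14 of the 31 identity and transcription factor genes that had a promoter in the table (45.2%), out of 48 on these lists. It stood in 230 of 670 promoters of genes higher in members (34.3%), in 27.3% of those of lower genes, in 27.1% of those of all measured genes and in 29.2% of all 27025 promoters. Of 5 further cores, CACCC, an element of KLF factors, stood in 65.4% of promoters of higher genes, 64.5% of lower genes and 56.9% of measured genes. CTTTGA, an element of TCF/LEF factors, stood in 11.5%, 10.03% and 10.5% of them. In the same 31 genes the KLF core stood in 22 (71.0%) and the TCF/LEF core in 16.1%. The core of the Gata2 family stood in 12.9% of them, against 5.29% of measured genes. The SOX and FOX cores each stood in 9.68% of them, against 11.4% and 7.31% of measured genes. Shares above that of measured genes were therefore not particular to the ETS core in this set. A match is a run of letters in this window and not a measured binding site.

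Genes were then compared between the 76 members and the 4910 other cells of the same library. UMIs were summed over the cells of each side and scaled to CPM. To be called higher, a gene needed 20 UMIs or more in members, detection in 10% of them or more, and a ratio whose interval lay wholly above 4. It was called lower when at least 20 UMIs would be present in members at the level of the other cells and the ratio and its interval were below 0.25. A gene that could meet either requirement on UMIs was counted as measured. Of 11414 measured genes, 900 were called higher, which is 7.89% of those measured, and 1502 lower, which is 13.2%. The median log2 ratio over all measured genes was -0.20. Of the higher genes, 470 were detected in at least 50% of members and 160 were at least 100 times higher. Because the cells were chosen on expression in the same counts, these numbers describe the class and test nothing.

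**Figure D2:**
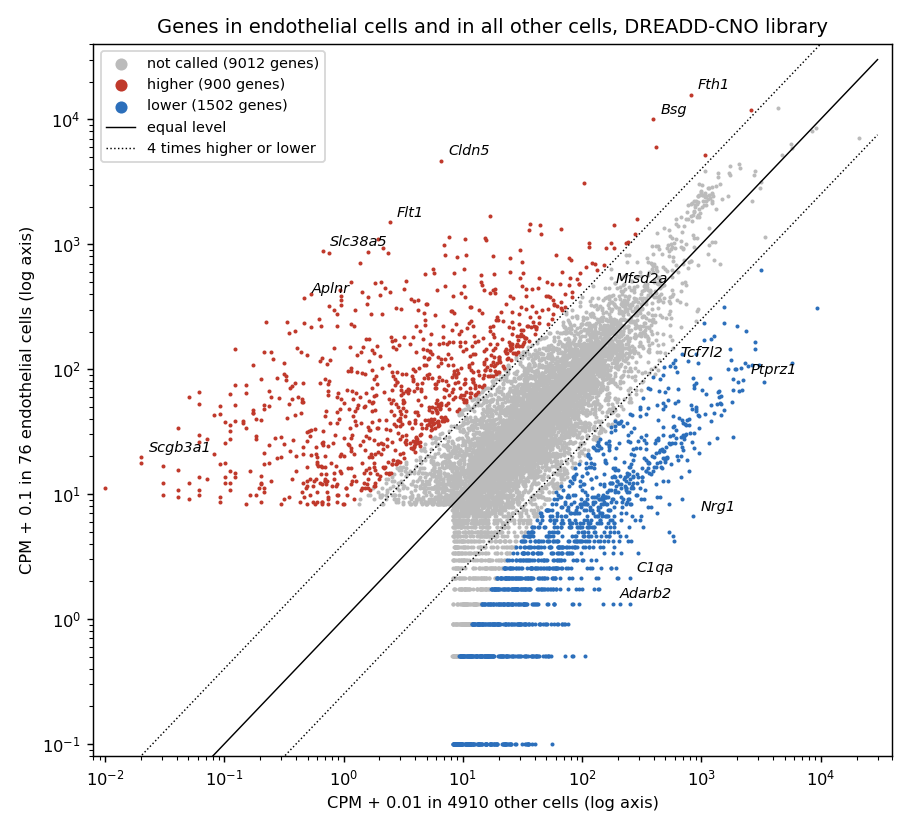
Each point is 1 of 11414 genes, with its CPM in the 4910 other cells on the x axis and in the 76 endothelial cells on the y axis, both on log axes with a small constant added. The solid line marks equal levels, the dotted lines a ratio of 4 either way, and colours mark the 900 higher and 1502 lower genes. Cldn5, Flt1, Slc38a5 and Aplnr lie far above the lines, and Nrg1 and Adarb2 far below.

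Outside the gene lists, the genes with the highest ratios were detected almost nowhere else in the library. Scgb3a1, a small secreted protein, had 48 UMIs in members and 1 in all other cells, a ratio of 1919 (328 to 77368). Lhx6, a transcription factor known from cortical interneurons, had 43 UMIs in members, in 15.8% of them, and 1 in all other cells. Adh1, an alcohol and retinol dehydrogenase, was at 59.3 CPM in members and 0.0409 CPM elsewhere. Foxl2, Foxf1 and Nr5a2, transcription factors known from ovary, lung vessels and liver, were at 52.7, 42.9 and 12.3 CPM in members, in 43.4%, 39.5% and 13.2% of cells. Slc52a3, a riboflavin carrier, was at 33.5 CPM. Dipk2b, Srarp, Tmem252, Gimap4, Mmrn1 and Depp1 were also among the 15 highest outside the lists, and list genes such as Slc38a5 and Adgrl4 lay within the same range. Aplnr, the apelin receptor, and Prnd, the prion-like protein Doppel of developing brain vessels, were at 370 and 138 CPM in members with ratios of 803 (595 to 1109) and 674 (429 to 1117).

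The lower genes outside the lists were ranked with counts under 3 in members set to 3, since 152 lower genes had 0 UMIs there. The 10 lowest were mostly highest in COP/OL-like cells. Epcam had 1 UMI in members, at 0.409 CPM against 106 CPM elsewhere, a ratio of 0.00386 (0.000098 to 0.0215). Adarb2 had 3 UMIs in members, a ratio of 0.00680 (0.00140 to 0.0199). Nrg1, the neuregulin ligand, stood at 6.54 CPM in members and 852 CPM in the other cells, and at 1092 CPM in COP/OL-like cells. Ccl2, a chemokine, stood at 2.04 CPM in members and 2621 CPM in macrophage-like cells, and OPC-like cells were at 3.84 CPM. Arhgap24, Ctnnal1, St18, Phyhipl, Plxnb3 and Grm7 were the others of these 10. Grm7, a glutamate receptor, was highest in pericyte-like cells, a class of 16 cells, at 303 CPM.

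Receptors for vascular growth factors were called higher in 8 of 8 measured genes of a list that leaves out the rule gene Flt1, with a median log2 ratio of 7.48. Kdr, the main signalling receptor for VEGF-A, was at 861 CPM (824 to 898) in members and 1.595 CPM in the other cells. In the 52 members with at least 5000 UMIs it ranged from 0.684 to 18.2 per 10000 with a median of 8.29, and it was detected in all 52. Flt1, the VEGF receptor used by the rule, was at 1499.8 CPM. Flt4, the receptor for VEGF-C, was at 63.0 CPM in members and 0.102 CPM elsewhere. Tek and Tie1, the Tie receptors, were at 386 and 238 CPM in members with medians of 3.27 and 2.24 per 10000 and were detected in 48 and 50 of the 52 deeper members. Nrp1, Nrp2 and Plxnd1, co-receptors for VEGF and semaphorins, were at 299, 169 and 180 CPM. Nrp1 was higher in macrophage-like cells, at 462 CPM, so members did not have the highest level.

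Ligands of these receptors and of the Wnt receptors were mostly higher in other cells, with VEGF-C as an exception. Vegfc was called higher, at 52.7 CPM in members and 6.34 CPM in the other cells, and was detected in 42.1% of members. Angpt2, a further ligand of Tek, was at 15.5 CPM in members and 5.53 CPM in the other cells and was not called. Vegfa had 5 UMIs in members, 2.04 CPM (0.664 to 4.77), against 44.9 CPM in OPC-like and 54.2 CPM in COP/OL-like cells. Angpt1, the agonist of Tek, was at 0 UMIs in members, 69.2 CPM in pericyte-like and 76.7 CPM in fibroblast-like cells. Wnt7b stood at 0.409 CPM in members and 24.1 CPM in OPC-like cells, and Wnt7a at 0.409 and 16.1 CPM. Ndp, which encodes Norrin, was at 0 UMIs in members and 4.33 CPM in OPC-like cells. Ptn and Mdk, growth factors of neural tissue, were at 170 and 4.09 CPM in members against 1869 and 92.6 CPM in OPC-like cells. Of the 12 vascular ligands listed as made elsewhere, 8 were measured; 4 were called lower (Vegfa, Wnt7b, Ptn and Mdk) and 1 higher (Cxcl12, described below).

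Members also made ligands of their own. Pdgfb, the signal that recruits pericytes, was at 173 CPM (157 to 191) in members, 8.65 CPM in pericyte-like cells and at most 17.3 CPM in any other class, and it was detected in 49 of the 52 deeper members. Its receptor Pdgfrb was at 1020.4 CPM in pericyte-like cells and at 0 UMIs in members. Edn1, endothelin-1, was at 63.8 CPM in members and 0.143 CPM elsewhere, in 40.8% of members. Tgfb1 was at 119 CPM in members and 261 CPM in macrophage-like cells. In all, 7 of the 12 measured secreted ligands were called higher. Bmp4 and Spp1 were called lower, at 10.6 and 2.04 CPM. Igf2, a growth factor of fetal vessels and meninges, was at 2.04 CPM in members, 1686 CPM in pericyte-like and 1924 CPM in fibroblast-like cells, which did not pass the rule against all other cells.

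Barrier transporters were higher in 22 of 25 measured genes and lower in 0, with a median log2 ratio of 4.95. All 25 had their highest level in endothelial cells among the 6 classes. Slc38a5, a glutamine transporter, was at 876 CPM (839 to 914) in members and 0.665 CPM in the other cells, a ratio of 1318 (1029.5 to 1714). Slco1c1, the thyroxine carrier, was at 1139 CPM and 7.70 CPM. Slc16a1, the lactate and ketone carrier MCT1, was at 1079 and 15.7 CPM and was detected in 50 of the 52 deeper members, where its median was 9.91 per 10000. Slc2a1, the glucose transporter GLUT1, was at 566 and 14.1 CPM, from 0 to 21.6 per 10000 with a median of 5.27. Slc7a5 with Slc3a2, which form the large amino acid carrier LAT1, stood at 804 and 750 CPM. Slc7a1, the cationic amino acid carrier, stood at 903 CPM. Abcb1a, the drug efflux pump P-glycoprotein, was at 356 CPM in members and 0.941 CPM elsewhere, with the reservation that Abcb1b is nearly identical in sequence. Abcg2, another efflux pump, was at 320 and 38.3 CPM. Mfsd2a, the lipid carrier that limits transcytosis, was at 442 CPM in members and 258 CPM in OPC-like cells, a ratio of 2.65 to all others that did not pass the rule. Insr, the insulin receptor, missed it too, at a ratio of 3.92.

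Genes of iron handling were abundant in the same cells. Fth1, the ferritin heavy chain, was at 15750 CPM (15593 to 15908) in members, 811 CPM in the other cells and 3761 CPM in macrophage-like cells; it belongs to no list and was named after its values were seen. Tfrc, the transferrin receptor, was at 770 CPM (735 to 805) in members and 24.8 CPM elsewhere. Slc40a1, the iron exporter ferroportin, was at 495 CPM in members and 180.0 CPM in macrophage-like cells. Ftl1, the ferritin light chain, did not follow Fth1: it was at 979.7 CPM in members and 1148 CPM in the other cells.

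The most abundant of the higher genes, named after their levels were ranked, were housekeeping and secreted products as well as vessel genes. Bsg, basigin, the chaperone of MCT carriers and a classical antigen of the blood-brain barrier, was at 10038 CPM (9913 to 10164) in members and 396 CPM in the other cells. Tmsb10, an actin-binding peptide, was at 5996 and 413 CPM. Vim, the intermediate filament vimentin, was at 1292 CPM in members, 35.9 times its level in the other cells, and Selenop, the selenium transport protein, at 1416 and 185 CPM. Ramp2, the partner of the adrenomedullin receptor, was at 1422 and 44.0 CPM, and Spock2, a matrix proteoglycan, at 1332 and 67.0 CPM. Of the insulin-like growth factor and growth genes, Igf1r, Igfbp4 and Igfbp7 were the 3 called higher of 10 measured, Igf1r at 937 CPM in members and 159.95 CPM elsewhere. Meg3, an imprinted long RNA, was the 1 called lower, at 15.5 and 199 CPM.

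**Figure D3:**
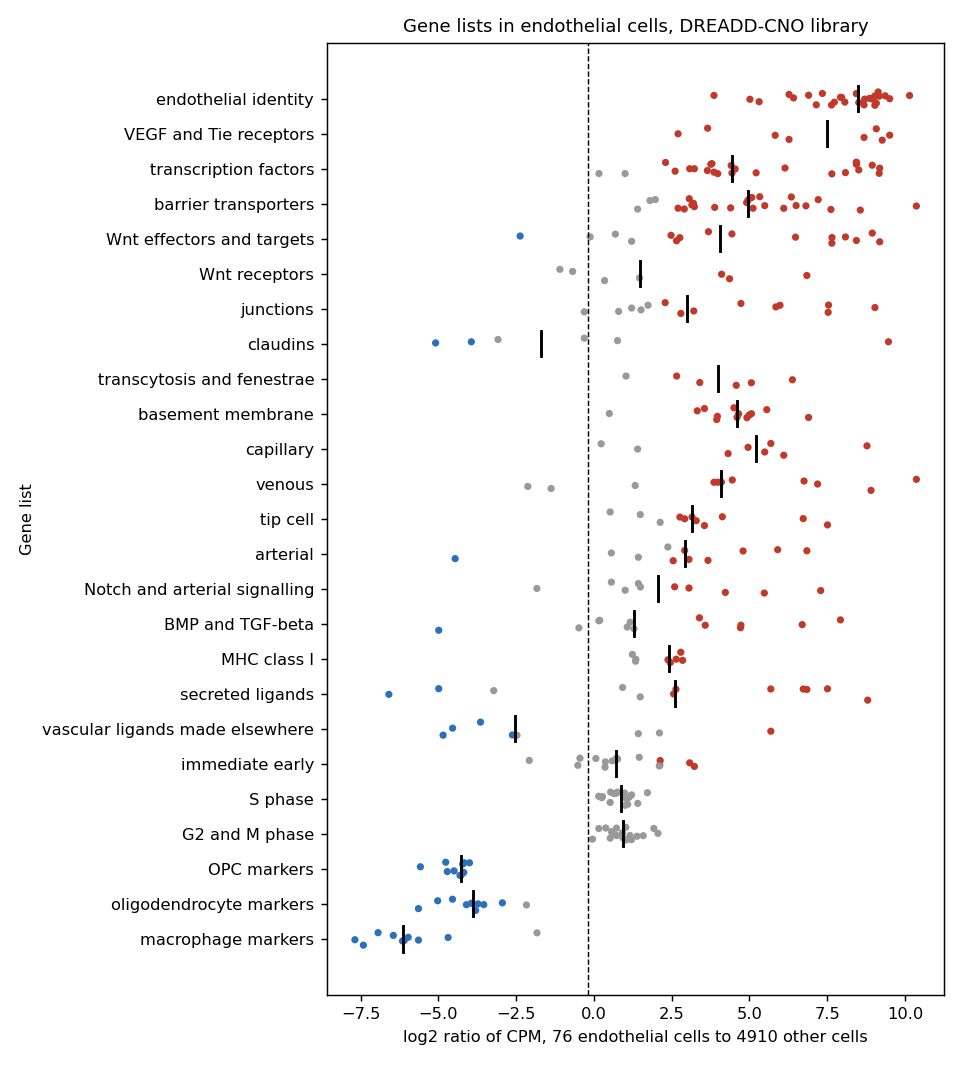
Each point is 1 gene of a list (rows), at the log2 ratio of its CPM in the 76 endothelial cells to that in the 4910 other cells; red marks genes called higher, blue lower and grey neither, black bars are list medians and the dashed line is the median of all measured genes, -0.20. The points of the endothelial identity list all lie right of the line, and those of OPC, oligodendrocyte and macrophage markers all lie left of it.

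Junction genes were higher in 9 of 14 measured cases. Ocln, the tight junction protein occludin, was at 116 CPM in members and 0.624 CPM elsewhere. Lsr and Marveld2, components of tricellular junctions, were at 223 and 12.3 CPM in members and 1.21 and 0.194 CPM elsewhere. F11r, which encodes JAM-A, was at 126 CPM. The scaffold Tjp1 (ZO-1) was at 819 CPM in members and 245 CPM in the other cells, a ratio of 3.34 below the rule's limit, and Ctnnb1 and Ctnnd1, catenins of adherens junctions, were at ratios of 2.32 and 2.86.

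Among claudins the members had little besides Cldn5, a gene by which they were chosen. Cldn5, the rule's leading gene, was at 4659 CPM and was detected in all 76 members; in the 52 deeper members it ranged from 3.19 to 87.2 per 10000 with a median of 48.7. Of the 24 claudins looked up, 17 were at 0 UMIs in members. Cldn34c1, Cldn11 and Cldn12 stood at 28.2, 16.4 and 7.77 CPM, and Cldn14, Cldn1 and Cldn10 at 1.64, 0.409 and 0.409 CPM. All 24 summed to 4714 CPM, which was mostly Cldn5. The other 23 summed to 54.8 CPM in members, and 0 of them were called higher. The sums of these 23 were 51.9 CPM in pericyte-like, 82.2 CPM in OPC-like and 591 CPM in fibroblast-like cells. Cldn11, the claudin of myelin, was called lower, at 251 CPM in the other cells, and so was Cldn10. Cldn3, once described at the barrier, was at 0 UMIs. Outside the class, 477 of the 644 Cldn5 UMIs of the other cells lay in 19 cells whose rule sum also reached 10 per 10000.

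Genes of caveolae were higher in 5 of 6 measured genes. Cav1 was at 159 CPM in members and 25.2 CPM elsewhere, and Cavin1, Cavin2 and Ehd2 at 143, 123 and 49.5 CPM against at most 5.16 CPM in the other cells together. Cavin1 was as abundant in fibroblast-like cells, at 155 CPM. Plvap, the diaphragm protein of leaky vessels, was at 13.9 CPM (9.63 to 19.4) in members but in fewer than 10% of them, so it was not among the measured genes.

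Wnt pathway effectors were higher in 12 of 16 measured genes, and receptors in 3 of 7. Lef1, the β-catenin partner, was at 447 CPM (421 to 474) in members and 2.23 CPM elsewhere, and Tcf7 at 56.4 and 2.61 CPM. Tcf7l2, the partner used in oligodendrocytes, was called lower, at 113 CPM in members and 1019 CPM in COP/OL-like cells, and Tcf7l1 was near equal at 84.6 and 92.0 CPM. Apcdd1, a feedback inhibitor of the pathway, was at 793 CPM in members and 8.89 CPM elsewhere, from 0 to 20.3 per 10000 with a median of 6.41 in the deeper members. Notum and Nkd1, further feedback inhibitors, were at 69.9 and 217 CPM. The general target Axin2 was low, at 21.7 CPM in members and 13.4 CPM elsewhere. The barrier factors Foxq1, Foxf2 and Ppard were at 219.6, 130.4 and 207 CPM in members and at 0.634, 0.481 and 30.5 CPM elsewhere. Of the receptor complex, Fzd4 was at 62.2 CPM, Fzd6 at 175 CPM and Adgra2 (GPR124) at 70.3 CPM, all higher. Lrp5, Lrp6, Tspan12 and Reck were not called, and Reck was at 19.6 CPM in members and 41.9 CPM in the other cells.

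Transcription factors of endothelium were higher in 23 of 25 measured genes with a median log2 ratio of 4.44. Fli1 and Ets1, ETS factors, were at 726 and 429 CPM in members and 31.2 and 6.07 CPM elsewhere. Fli1 also stood at 405 CPM in macrophage-like cells, as did Klf2 at 1468 CPM, which exceeded the 957 CPM of members. Foxp1, Lmo2 and Foxc1 were at 819.8, 404 and 94.9 CPM in members, and Foxc1 was higher in fibroblast-like cells, at 309.7 CPM. Gata2 and Tal1, factors shared with blood stem cells, were at 35.6 and 46.2 CPM, and Tal1 was at 43.2 CPM in macrophage-like cells. Mecom, named after its values were seen, was at 848 CPM in members and 2.36 CPM elsewhere. Etv6 and Mef2c were not called.

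Notch, BMP and TGF-β genes were mixed. Dll4, Notch4, Jag1, Jag2 and Hes1 were the 5 called higher of 10 measured Notch genes, at 52.7, 40.1, 37.2, 64.6 and 159.9 CPM. The list of 11 Notch genes summed to 643 CPM in members, 1116 CPM in pericyte-like and 999 CPM in macrophage-like cells. Of the 11, 4 were highest in members and 5 in pericyte-like cells. Hey1 and Efnb2, arterial targets of the pathway, were at 22.5 and 23.3 CPM and were not called. Of 13 measured BMP and TGF-β genes, 6 were called higher and 1, Bmp4, lower. Acvrl1 (ALK1) was at 149 CPM in members and 1.44 CPM elsewhere, its co-receptor Eng at 502 and 2.07 CPM, and the targets Id1 and Id3 at 231 and 445 CPM.

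Basement membrane genes were higher in 12 of 13 measured genes. Col4a1 and Col4a2 were at 601 and 579 CPM in members against 24.8 and 18.2 CPM in all other cells. Pericyte-like cells had 2862 and 1617 CPM of them, so members were not the class with the highest level. Sparc, a collagen-binding matrix protein, was at 3114 CPM in members, 2672 CPM in pericyte-like and 2319.8 CPM in fibroblast-like cells. Lamc1 was at 129 and 91.4 CPM and was not called. Igfbp7, an endothelial secreted protein, was at 1686 CPM in members and 3208 CPM in pericyte-like cells.

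Genes of MHC class I antigen presentation were called higher in 5 of 8 measured genes and lower in 0, with a median log2 ratio of 2.42. The list summed to 997 CPM in members and 1796 CPM in macrophage-like cells, and 6 of the 8 were highest in macrophage-like cells. H2-D1 and H2-K1, class I molecules with near-identical relatives, were at 397 and 191 CPM in members and 72.5 and 30.6 CPM elsewhere, and B2m, which was not called, at 259 and 102 CPM. Immediate early genes were called higher in 4 of 15 cases, Junb, Ier2, Klf2 and Klf4. Fos was at 197 CPM (180.3 to 216) in members and 189 CPM elsewhere, where macrophage-like cells had 2164 CPM and OPC-like cells 40.1 CPM. The immediate early list summed to 2774 CPM in members, 11404 CPM in macrophage-like and 455 CPM in OPC-like cells; the part of dissociation in this was not tested.

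Vessel-type genes were then read in single members, in the 52 with at least 5000 UMIs. Capillary genes were called higher in 6 of 8, venous in 8 of 11, tip cell in 8 of 11 and arterial in 7 of 11 measured genes, with overlap between the lists. Summed over all members, the arterial list stood at 395 CPM, against 977 CPM in pericyte-like and 2553 CPM in fibroblast-like cells. The tip cell list was near equal in these classes, at 689, 683 and 591 CPM. The capillary and venous lists stood at 5387 and 7659 CPM in members, and at most 932 and 3544 CPM in any other class. Most of the venous sum was Tmsb10, the actin-binding peptide named above, at 5996 CPM in members. Tmsb10 was also detected in 79.7% of the other cells. It had 14663 UMIs in members, beside 2142 of Slc38a5 and 728 of Vwf on the same list. Of 14 genes each, 7 arterial and 6 tip cell genes were highest in members among the 6 classes. Clu, on the arterial list, was called lower. The arterial list summed to a median of 0.50 per 10000 per member and to 260.5 in 1 member. Bmx, an arterial kinase, was detected in 5 of the 52 deeper members, Gkn3 in 3, Sema3g in 9 and Gja5, the arterial connexin, in 3. For Mgp, 94.1% of the 219 UMIs lay in 1 member. Capillary and venous genes were spread more widely. Slc38a5 was detected in 45, Car4 in 43, Tfrc in 44, Vwf in 44, Nr2f2 in 36, Ephb4 in 33, Icam1 in 33 and Ackr1 in 17. Selp and Sele, selectins of activated veins, were at 0 UMIs. Apln, the tip cell ligand, was detected in 28, ranging to 17.6 per 10000, while Esm1 and Angpt2 were in 3 and 9.

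Arterial genes differed in how often they shared a cell with Slc38a5, which 45 of the 52 deeper members held. Of the 5 deeper members with Bmx 0 held Slc38a5, while of the 19 with Gja4, another arterial connexin, 12 did. All 28 deeper members with Apln also held Slc38a5. Every one of the 52 held Slc38a5 or Cxcl12, the chemokine of arterial and capillary cells: 37 held Slc38a5 without Cxcl12, 7 Cxcl12 without Slc38a5 and 8 both. Cxcl12 UMIs sat in few cells, with 45.8% of its 605 UMIs in 1 member. In the 7 members with at least 10 per 10000 of Cxcl12, its level ran from 19.05 to 56.7 per 10000, Apln was at 0 UMIs in all 7, and Ly6c1 had a median of 24.6 per 10000. In the 37 members without Cxcl12, Ly6c1 had a median of 1.96. Ly6c1 is a rule gene with near-identical relatives, and its levels are given as a description. Fth1 had medians of 34.9 and 155 per 10000 in the same 2 sets.

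A set of 4 members held at least 2 of Bmx, Gkn3, Sema3g and Gja5. They had 10006, 14332, 14628 and 21481 UMIs, and all showed Y-linked UMIs without Xist. Slc38a5, Apln and Tfrc were at 0 UMIs in all of them, while Slc38a5 was in 45 and Tfrc in 44 of the 48 others. Fbln5, a matrix protein of elastic vessels, was at 2.998, 6.28, 63.6 and 15.8 per 10000 in them. Cxcl12 was in all 4, between 0.999 and 19.1 per 10000. Fth1 was at 1.999, 21.6, 15.7 and 34.9 per 10000, against a median of 135 (9.43 to 395) in the 48 others, so these ranges overlapped. Cldn5 had medians of 47.4 and 48.7 per 10000 in the 2 sets. The member with 10006 UMIs was marked by the doublet score, and the 1 with 14332 UMIs held 46.1 per 10000 of COP/OL genes. These sets were drawn from the data after the values were seen and are given without a test.

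Genes that followed Slc38a5 over these 52 cells were ranked by Spearman's correlation among 6005 genes. The nearest were Fth1 (0.77), Pabpc1 (0.65) and Rplp0 (0.62), and Csf1 reached 0.57. The most opposed were Igfbp7 (-0.53), Dll4 (-0.51), Clec2d (-0.50), Mcam (-0.48) and Pecam1 (-0.48). The cells share 1 library, and depth moved with several of these genes: the correlation with total UMIs was 0.35 for Fth1, 0.42 for Rplp0 and 0.42 for Csf1, and its part was not tested. The values describe these cells only.

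**Figure D4:**
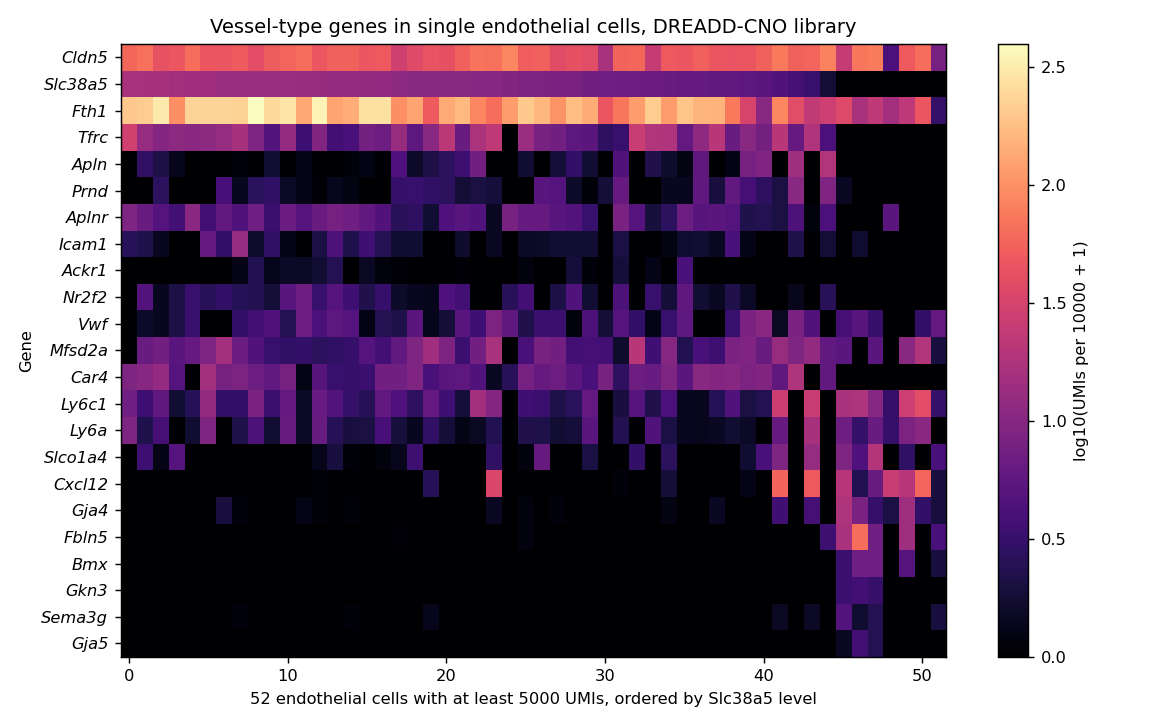
Heat map of 23 genes (rows) in the 52 endothelial cells of the DREADD-CNO library with at least 5000 UMIs (columns, ordered from high to low Slc38a5), as log10 of UMIs per 10000 plus 1. Cldn5 is bright in nearly all columns, Slc38a5 is present in 45, and Bmx, Gkn3 and Gja5 appear among the 7 columns without it, while Sema3g appears in columns of both kinds.

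Cell cycle transcripts were found in a part of the members. At a depth of 5000 UMIs per cell, with 24 shallower members left out, 16 of 52 members (30.8%, 18.7 to 45.1) had at least 2 UMIs of the 18 G2 and M phase genes. The share was 33.7% (28.4 to 39.2) of 315 macrophage-like cells, 14.8% (13.3 to 16.4) of 2140 OPC-like cells and 1.56% (1.00 to 2.31) of 1538 COP/OL-like cells. Without thinning it was 35 of 76 members (46.1%). For S phase genes the thinned shares were 48.1% of members, 42.2% of macrophage-like, 25.2% of OPC-like and 11.96% of COP/OL-like cells. By summed level none of the 18 G2 and M or 16 measured S phase genes was called in either direction. Mki67 and Top2a were at 69.9 and 98.5 CPM in members and 47.0 and 66.2 CPM in the other cells. The highest single members reached 85.7, 74.9 and 57.6 per 10000 for the G2 and M list, with 5250, 3205 and 26411 UMIs. The cell with 3205 UMIs was marked by the doublet score.

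**Figure D5:**
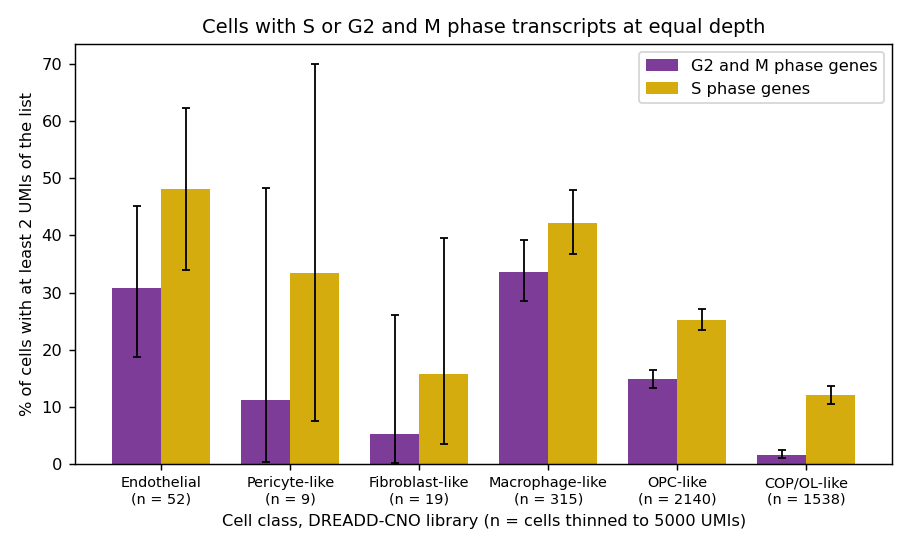
Bars give the percentage of cells in each class of the DREADD-CNO library with at least 2 UMIs of the G2 and M phase list (purple) or the S phase list (yellow) after each cell was thinned to 5000 UMIs; error bars are exact 95% binomial intervals and n is the number of cells. The endothelial bars stand at 30.8% and 48.1%, and the COP/OL-like bars at 1.56% and 11.96%.

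The 3 members of the WT-CNO library had 1450, 5218 and 41823 UMIs and rule sums of 48.3, 93.9 and 96.4 per 10000. Cldn5 had 6, 36 and 302 UMIs in them, Tie1 0, 1 and 19, and Kdr 1, 2 and 15. The deepest of them held 38 UMIs of Bmx, 34 of Gkn3, 17 of Sema3g, 79 of Fbln5 and 56 of Mgp, and 0 of Slc38a5, Apln, Car4 and Tfrc. The cell with 5218 UMIs held 3 UMIs of Slc38a5 and 4 of Tfrc, and 0 of Bmx. With 3 cells, of which 1 holds most of the UMIs, no level was set against the DREADD-CNO members.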

How the data were processed

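Droplet libraries (Single Cell 3' v3) were processed by the authors with Cell Ranger 7.1.0, per the submitters' processing notes. Build and annotation: not given in the sources used here. As to units, the deposited matrices hold raw UMI counts of 32285 features, not normalized. Barcodes were filtered on genes and mitochondrial UMIs (333 and 247 had under 500 genes and 1647 and 1521 over 10% in WT-CNO and DREADD-CNO), and classes were cut from marker sums per 10000. Counts were summed per class and scaled to CPM. Intervals are exact (Poisson, Clopper-Pearson, and conditional binomial for ratios, 95%) and cover counting error only; no p-value was computed, since each group is 1 library. The comparison across genes was run on simulated sums that held counting error alone, without the requirement on detection in members. That run could not show errors that come from variation between cells. Doublets were scored with Scrublet in scanpy 1.11.5, whose automatic threshold called 0 and 5 cells; the 168 and 206 highest scores were removed as an alternative, and no cell was removed otherwise. Nearest neighbours used scikit-learn 1.9.0; Python 3.11.15, numpy 2.4.6, scipy 1.17.1 and pandas 2.3.3 did the rest. The members and the 34 gene lists were chosen with earlier results of these data known. Named genes were list members past the rule of size or the 2 most abundant of their list, the 15 other genes with the highest ratio and the 10 with the lowest, without predicted, sex-linked, mitochondrial and erythroid genes; members of the VEGF, Wnt, junction, claudin and vessel-type lists could be named at any value. Genes outside this rule are said to be named after their values were seen. In all, 13 alternatives were tried. Some list members are not reported here.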

Additional observations from a re-analysis of the deposited data

How the results depend on the processing

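Of 574 recomputed ratios of 48 named genes, 0 changed direction under the alternatives, but among all called genes some did. Of the 1502 lower genes, counting those with a UMI in members, 39 had a ratio over 1 against OPC-like and COP/OL-like cells. The count was 3 by the mean of per-cell levels and 2 after thinning. Of the 900 higher genes, 53 had a ratio under 1 after thinning and 3 in cells with Xist only. These counts include genes with 0 UMIs in members. With 0 UMIs set to 3, they were 0 and 1, so the 53 were genes that thinning left without a UMI in members. Of 200 recomputed medians of 17 lists, 1 changed direction. The arterial median log2 ratio was -4.56 in cells with Xist only, which left 16 members, against 2.92. Endothelial cells of DREADD-CNO numbered 55 with a mitochondrial limit of 5% against 76. Thinning every cell to 1284 UMIs kept 68 members and 1046 measured genes; 141 genes were higher and 163 lower, against 900 and 1502, and 62 list genes were higher against 146. In cells with Xist only, 945 genes were lower. The share with G2 and M transcripts was 46.1% without thinning against 30.8%. The other 50 recomputed main results moved by less than their limits. Against OPC-like and COP/OL-like cells only, 1096 genes were higher and 1448 lower. Alternatives chosen after seeing the data gave 869 higher genes without the 2 deepest members, 894 without the 3 members with COP/OL genes and 898 in members with at least 5000 UMIs. No paired analysis was possible because each group is 1 library and replicate numbers only name the samples. Depth limits the readings of single members: 24 of the 76 had under 5000 UMIs and were left out of the readings per cell.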

Other observations

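A few genes in the endothelial cells were carried by single cells. Of the higher genes, 7 had over 50% of their UMIs in 1 member: Madcam1, Efna4, Itih5, Chst9, Eln, Fgfbp1 and Fbln5. The member with 14628 UMIs held 93 UMIs of Fbln5 and 206 of Mgp.

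Apln and Prnd, genes of sprouting or immature vessels, were detected in 28 and 34 of the 52 deeper members and in the same cell in 23. Cxcl12 was in 15 of the 52, and it shared a cell with Prnd in 8 members and with Apln in 4. Icam1 and Ackr1, genes of veins, were in 33 and 17 of the 52 and shared a cell with Cxcl12 in 6 and 2. Slc38a5 was in 45 of the 52, and all 17 members with Ackr1 held it. No test was made of these overlaps.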
